A study of Mus musculus with 6 samples.

Results

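The genes of the mouse major histocompatibility complex (MHC) carry symbols that start with H2-. All protein-coding genes with such a symbol were taken, together with B2m and Cd74, whose products assemble with the MHC proteins but whose genes lie elsewhere. They number 36 of the 55487 genes measured: 25 class I genes, 10 class II genes and H2-Ke6, which has its symbol from its map position and encodes no MHC chain. Of the 36, 34 lie on chromosome 17, B2m lies on chromosome 2 and Cd74 on chromosome 18. RNA of whole small intestine was sequenced in 3 libraries of Lgr5-2A-DTR mice (DTR) and 3 libraries of wild-type mice (WT). The Lgr5-2A-DTR allele places the receptor for diphtheria toxin under the control of Lgr5, the marker gene of crypt base stem cells, and the model removes cells that express Lgr5. Mice of both genotypes were C57BL/6 adults of more than 8 weeks, and both were injected with diphtheria toxin, at 20 µg/kg per day over 4 days, with tissue taken 6 h after the last dose. The comparison of DTR with WT asks how transcripts of the tissue differ once Lgr5-expressing cells have been removed.

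Class I molecules consist of a heavy chain and the light chain encoded by B2m. They are made by nearly all nucleated cells, and they show CD8 T cells short peptides that the proteasome cuts and the transporter TAP carries into the endoplasmic reticulum. The classical heavy chains of this strain are H2-K1 and H2-D1, while the many genes of the Q, T and M regions encode non-classical chains, several of which are read by natural killer cells or by unconventional T cells. Class II molecules pair an alpha with a beta chain, are held empty by the invariant chain Cd74, and are loaded with peptide by the exchange factor DM, which DO restrains. They are known from B cells, dendritic cells and macrophages, and the intestinal epithelium can also make them. Interferon-gamma raises both classes, through the transactivators Nlrc5 for class I and Ciita for class II.

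The promoters of both classes are known to carry short shared elements, so DNA before the RefSeq start sites of genes on which the results below turn is shown first. Of the 36 genes, 32 had a promoter entry in RefSeq on GRCm38.p6, the assembly also called mm10. The 150 bases before the RefSeq start site are given in the direction of transcription, for the light chain, a classical class I chain, class I chains that fell, a class II chain, a DM chain and both DO chains. The gene positions given below are from GENCODE M21, which can start a gene elsewhere than RefSeq. For H2-T3, H2-DMb1 and H2-Oa, the last 136, 119 and 39 printed bases lie inside the M21 gene. Their stretches are therefore not wholly upstream of the gene as annotated there. Capitals mark the letters of 4 motifs, searched on both strands, none of which contains another: CCAAT, the Y box, which reads ATTGG on the other strand; AGNAAC, a part of the X box; GAAANNGAA, the core of an interferon-stimulated element; and GGATTCCCC, the kappa B site of class I enhancers.
B2m (chr2:122147537-122147686, plus strand): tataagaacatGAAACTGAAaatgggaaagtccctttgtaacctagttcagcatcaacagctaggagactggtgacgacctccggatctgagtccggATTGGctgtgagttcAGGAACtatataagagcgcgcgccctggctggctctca
H2-K1 (chr17:34000348-34000497, minus strand): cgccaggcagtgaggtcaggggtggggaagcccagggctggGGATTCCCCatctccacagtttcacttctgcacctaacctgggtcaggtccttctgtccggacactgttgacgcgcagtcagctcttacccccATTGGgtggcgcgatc
H2-T22 (chr17:36042743-36042892, minus strand): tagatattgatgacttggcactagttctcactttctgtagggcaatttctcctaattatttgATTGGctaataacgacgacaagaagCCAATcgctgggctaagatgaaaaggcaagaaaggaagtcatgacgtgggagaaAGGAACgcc
H2-T3 (chr17:36190152-36190301, minus strand): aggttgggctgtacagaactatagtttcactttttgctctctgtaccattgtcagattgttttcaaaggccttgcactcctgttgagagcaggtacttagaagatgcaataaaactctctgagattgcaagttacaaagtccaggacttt
H2-Eb1 (chr17:34305717-34305866, plus strand): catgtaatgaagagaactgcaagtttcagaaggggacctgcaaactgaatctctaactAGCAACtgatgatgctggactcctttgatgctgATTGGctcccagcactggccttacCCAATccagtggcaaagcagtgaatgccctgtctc
H2-DMb1 (chr17:34153041-34153190, plus strand): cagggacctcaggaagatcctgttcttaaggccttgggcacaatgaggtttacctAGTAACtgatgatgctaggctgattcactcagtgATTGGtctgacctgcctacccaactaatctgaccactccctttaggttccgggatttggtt
H2-Oa (chr17:34092229-34092378, plus strand): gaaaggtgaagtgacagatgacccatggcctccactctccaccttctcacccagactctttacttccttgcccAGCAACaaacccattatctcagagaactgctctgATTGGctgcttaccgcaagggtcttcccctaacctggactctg
H2-Ob (chr17:34238755-34238904, plus strand): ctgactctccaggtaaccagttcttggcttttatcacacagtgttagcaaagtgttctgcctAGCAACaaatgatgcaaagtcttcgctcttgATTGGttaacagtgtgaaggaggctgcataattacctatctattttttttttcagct
The CCAAT letters stood in the window of 300 bases (250 before and 50 after the start) of 20 of 23 class I genes and 7 of 8 class II genes with an entry, against 37.4% of all 32851 promoter windows. AGNAAC stood in 13 of 23 class I and 5 of 8 class II windows, against 48.1% of all windows. GAAANNGAA was present for B2m, H2-T22 and H2-T23 and in no class II window, against 8.56% of all windows; that of H2-T22 lies farther upstream than the bases printed. GGATTCCCC was present for H2-K1, H2-D1 and H2-Q6, against 0.283% of all windows. In H2-Eb1, H2-DMb1, H2-Oa and H2-Ob an AGNAAC match is followed, 25 to 28 bases on, by ATTGG, as is also the case in H2-Eb2. That arrangement, whose spacing was set after these windows were seen, occurred in those 5 class II windows, in no class I window and in 69 of all 32851 windows (0.21%). A match of letters is no measured binding site.

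The libraries held 61404574 to 76596766 reads in genes. Lgr5 had 22, 0 and 34 reads in DTR replicates 1, 2 and 3, against 315, 254 and 229 reads in WT replicates 1, 2 and 3. The libraries also differed by sex-linked transcripts: Xist had 22432 to 24279 reads in DTR libraries and 16 to 38 reads in WT libraries, and Ddx3y, Eif2s3y, Kdm5d and Uty had 0 reads in every DTR library. Genotype and sex therefore cannot be told apart in any difference given here. Levels are in RPKM, reads scaled to gene length and to the total of the library, which allows levels of different genes to be compared. Changes are DTR minus WT on the scale of the deposited log2 RPKM, tested with limma over the 15563 genes with a mean log2 RPKM above -2, and a gene is said to have risen or fallen where its Benjamini-Hochberg adjusted p was under 0.05. The median change of all tested genes was 0.03. Of the 15563 genes, 6037 had an unadjusted p under 0.05, in either direction. For fits with libraries left out that number is not given, so counts at an unadjusted p there have no background beside them. The labels do not say which libraries came from separate mice, so the p-values describe the spread among these libraries, which may be technical. In bulk tissue, fewer cells of a type and less RNA per cell cannot be told apart. Leaving out any WT library left 152 to 207 genes called in all, against 2845 with all 6 libraries, and most calls below were lost when a WT library was left out.

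Of the 36 genes, 24 passed the level filter, 15 of class I and 9 of class II. Among the class I genes 4 of 15 fell (H2-T3, H2-T22, H2-T24 and H2-M2), against 8.74% of all tested genes. None rose, against 9.54% of all tested genes, and 0 were higher at an unadjusted p under 0.05 or by voom on reads. The median change was -0.39. Each DTR library lay below each WT library for 6 of the 15, against 22.6% of all tested genes. Among the class II genes 2 of 9 fell (H2-Oa and H2-Ob), both of which passed the filter through their WT levels, so that their count cannot be read against the 8.74% of all tested genes. None rose by the adjusted p, an unadjusted p under 0.05 or voom, and the change was negative for all 9 that passed the filter, with a median of -1.20 and a range of -3.67 to -1.10. For 3 of the 9 (H2-Oa, H2-Ob and H2-DMb2) the highest DTR library lay below the lowest WT library, against 22.6% of all tested genes. The limit from the filter on H2-Oa and H2-Ob holds for this count as well, and for the count of negative changes, the median and the range.

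**Figure D1:**
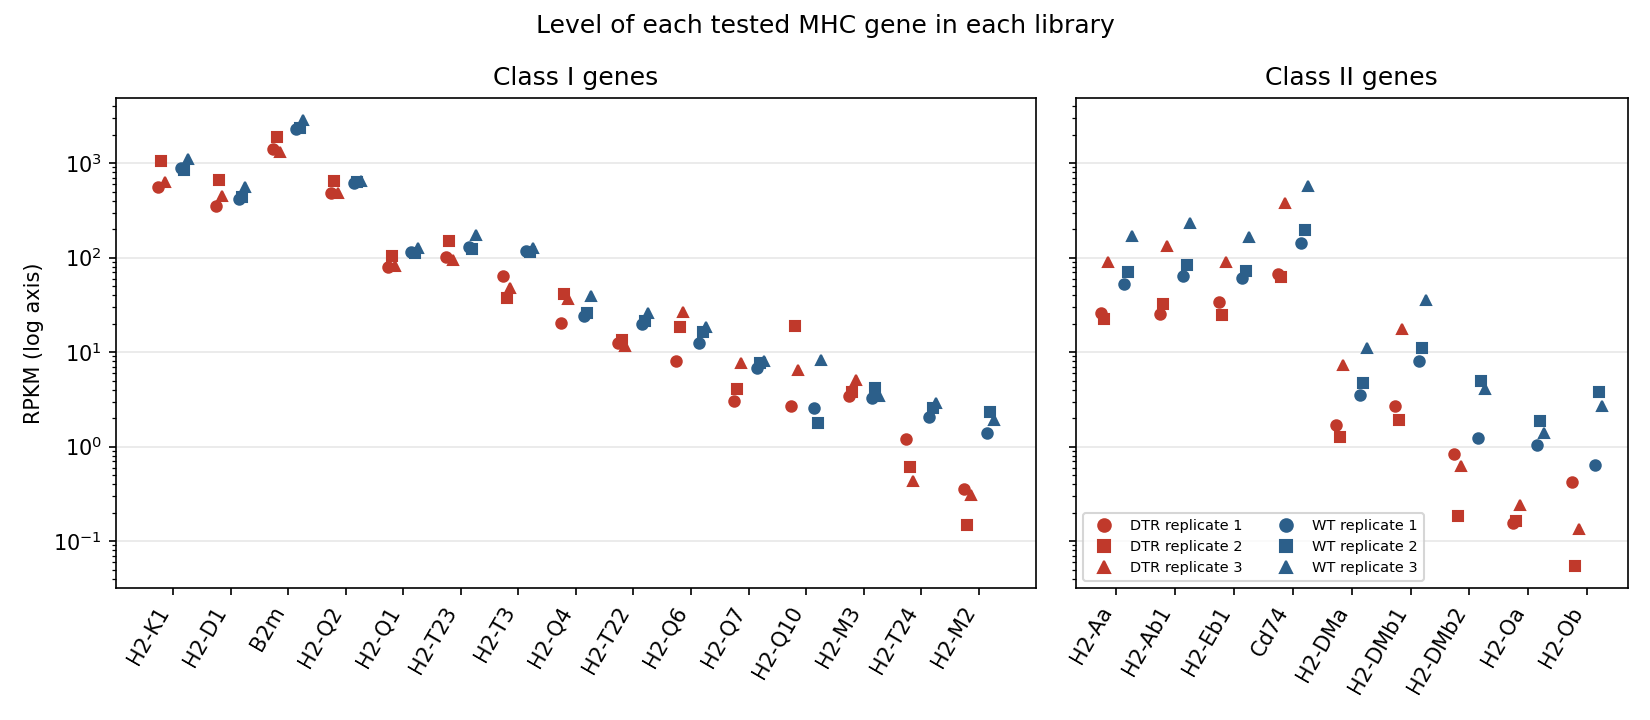
RPKM on a log axis of the 24 tested MHC genes in each library, with class I genes on the left and class II genes on the right; red points are DTR libraries, blue points are WT libraries, and the marker shape gives the replicate number. B2m stood highest, between 1328 and 1879 RPKM in DTR and between 2281 and 2843 RPKM in WT, and for most class II genes replicate 3 of each group stood above the other two libraries of its group.

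The classical class I heavy chains, which present peptides to CD8 T cells, did not pass limma's test, nor an unadjusted p under 0.05, nor voom. H2-K1 (ENSMUSG00000061232.16, chromosome 17, 33996017 to 34000347, minus strand, mm10) had 561, 1049.9 and 631 RPKM in DTR replicates 1, 2 and 3, against 879, 857 and 1113 RPKM in WT replicates 1, 2 and 3. DTR replicate 2 lay among the WT libraries and the other two DTR libraries below them. The mean of H2-K1 was 748 ± 264 RPKM in DTR and 949 ± 142 RPKM in WT (SD, n = 3 each), a log2 change of -0.39 (SE 0.27, limma adjusted p = 0.319). H2-D1 (chromosome 17, 35262730 to 35267499, plus strand) had 348, 669 and 452 RPKM in DTR, against 419, 435 and 554 RPKM in WT, so that the DTR libraries held both the lowest and the highest value. Its log2 change was 0.02 (SE 0.27, limma adjusted p = 0.961), and its sign turned to -0.23 without DTR replicate 2, to -0.055 without WT replicate 1 and to -0.029 without WT replicate 2.

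B2m, the light chain of every class I molecule, was the most abundant MHC transcript in all 6 libraries. B2m (ENSMUSG00000060802.8, chromosome 2, 122147686 to 122153083, plus strand) had 1407, 1879 and 1328 RPKM in DTR replicates 1, 2 and 3, against 2281, 2351 and 2843 RPKM in WT replicates 1, 2 and 3. All DTR libraries lay below all WT libraries, with means of 1538 ± 298 RPKM in DTR and 2492 ± 306 RPKM in WT (SD, n = 3 each). The log2 change of -0.71 (SE 0.22) missed the threshold (limma adjusted p = 0.0644), and it passed in 5 of 19 alternatives, among them voom on reads (adjusted p = 0.0348) and leaving out DTR replicate 2 (adjusted p = 0.0337). Set against the summed RPKM of all class I heavy chains, which was 1684, 2759 and 1892 in DTR and 2353, 2356 and 2850 in WT (as RPKM, replicates 1 to 3), B2m came to 0.835, 0.681 and 0.702 in DTR, against 0.969, 0.998 and 0.998 in WT. In each DTR library there was thus less B2m RPKM per heavy chain RPKM than in any WT library.

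The Q region chains ranged widely in level, and none of those tested passed the adjusted test. H2-Q2 was as abundant as the classical chains, with 478, 645 and 488 RPKM in DTR, against 621, 629.6 and 646 RPKM in WT, and a log2 change of -0.25 (SE 0.17, limma adjusted p = 0.298). Together H2-K1, H2-D1 and H2-Q2 made up 82.4%, 85.7% and 83.1% of the summed heavy chain RPKM in DTR replicates 1, 2 and 3, against 81.6%, 81.5% and 81.2% in WT replicates 1, 2 and 3. H2-Q1 had 79.2, 104 and 82.3 RPKM in DTR, against 115, 113 and 126 RPKM in WT, with no overlap between the groups. Its log2 change was -0.42 (SE 0.14, limma adjusted p = 0.0835). H2-Q7, a gene for the Qa-2 antigen, had 3.03, 4.11 and 7.74 RPKM in DTR, against 6.79, 7.72 and 8.03 RPKM in WT, and DTR replicate 3 lay within the WT range (log2 change -0.71, SE 0.34, limma adjusted p = 0.167). H2-Q4, at 20.4 to 41.4 RPKM in DTR and 24.4 to 39.8 RPKM in WT, and H2-Q6, at 7.98 to 26.6 RPKM in DTR and 12.4 to 18.5 RPKM in WT, had log2 changes of 0.09 (SE 0.32) and 0.03 (SE 0.44). The sign of H2-Q4 turned to -0.11, -0.016 and -0.039 without DTR replicate 2, DTR replicate 3 and WT replicate 1, and that of H2-Q6 turned to -0.0058 with quantile normalization and to as low as -0.34 without DTR replicate 3. H2-Q10, a secreted class I protein known from liver, had 2.72, 18.9 and 6.49 RPKM in DTR, against 2.59, 1.80 and 8.26 RPKM in WT. Its groups overlapped, with DTR replicate 2 above all others (log2 change 1.04, SE 0.83, limma adjusted p = 0.382). These chains share sequence with other genes: of all 50-base stretches in their transcripts, 32.0% of H2-Q6, 26.4% of H2-Q7, 21.8% of H2-Q4 and 19.0% of H2-Q10 also occur in another gene, and 19.1% of the exon bases of H2-Q4 lie over Gm11131 on the other strand. The sources used here do not give how such reads were assigned, and these values are uncertain.

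The T region held 3 of the 4 class I genes that fell. H2-T3 (ENSMUSG00000054128.16), which encodes the thymus leukemia antigen, is known from intestinal epithelium and binds CD8 alpha chains on intraepithelial T cells. It lies on chromosome 17, 36185572 to 36190287, on the minus strand. H2-T3 had 64.3, 37.9 and 47.6 RPKM in DTR replicates 1, 2 and 3, against 117, 116 and 128 RPKM in WT replicates 1, 2 and 3. The groups were far apart, with means of 49.9 ± 13.4 RPKM in DTR and 120.3 ± 6.76 RPKM in WT (SD, n = 3 each), and the log2 change was -1.30 (SE 0.20, limma adjusted p = 0.0158). H2-T3 made up 3.82%, 1.37% and 2.52% of the summed heavy chain RPKM in DTR libraries, against 4.96%, 4.93% and 4.49% in WT libraries. Of its 50-base stretches, 0.894% occur in another gene. Without WT replicate 1, 2 or 3 its log2 change was -1.32, -1.33 and -1.25, with limma adjusted p of 0.0710, 0.0713 and 0.0762.

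H2-T22, whose product is bound by a subset of gamma-delta T cell receptors, lies at 36037128 to 36042747 on the minus strand of chromosome 17. It had 12.6, 13.5 and 11.7 RPKM in DTR, against 20.1, 21.2 and 26.2 RPKM in WT, again without overlap. The means were 12.6 ± 0.928 RPKM in DTR and 22.5 ± 3.23 RPKM in WT (SD, n = 3 each), and H2-T22 fell by 0.83 on the log2 scale (SE 0.14, limma adjusted p = 0.0185). The limma adjusted p was 0.0518 without DTR replicate 3, and 0.0710, 0.0784 and 0.0789 without WT replicate 1, 2 and 3. For H2-T22, 34.5% of its 50-base stretches also occur in other genes, with 31.2% of all its stretches found in H2-T10, and 29.4% of its exon bases lie over A930015D03Rik on the opposite strand, so its reads cannot be fully told apart from theirs. H2-T24 (36005695 to 36020560, minus strand) had 1.20, 0.611 and 0.435 RPKM in DTR, against 2.07, 2.55 and 2.92 RPKM in WT. It fell by 1.86 on the log2 scale (SE 0.39, limma adjusted p = 0.0288), and the call was lost without DTR replicate 2 (0.0575), DTR replicate 3 (0.0641), WT replicate 1 (0.0900), WT replicate 2 (0.103) or WT replicate 3 (0.111), each value being the limma adjusted p. With a pseudocount of 1 added to the RPKM, H2-T24 had a change of -1.02, still past the threshold. H2-T23, which encodes Qa-1, the ligand of the NKG2A receptor of natural killer and T cells, had 100.6, 151 and 95.5 RPKM in DTR, against 129, 123 and 174 RPKM in WT. DTR replicate 2 lay within the WT range (log2 change -0.31, SE 0.23, limma adjusted p = 0.345).

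In the M region, H2-M2 (37480851 to 37483552, minus strand) had 36, 14 and 30 reads in DTR, against 160, 222 and 227 reads in WT. These correspond to 0.360, 0.147 and 0.311 RPKM in DTR and 1.39, 2.34 and 1.93 RPKM in WT, with no overlap. H2-M2 fell by 2.85 on the log2 scale (SE 0.41, limma adjusted p = 0.0136) and by 1.17 with a pseudocount of 1 added to the RPKM, still past the threshold. The limma adjusted p was 0.0577, 0.0696 and 0.0673 without WT replicate 1, 2 and 3. H2-M3, which presents peptides with a formylated start such as those of bacteria, had 3.46, 3.76 and 5.01 RPKM in DTR, against 3.28, 4.17 and 3.48 RPKM in WT. Its groups overlapped (log2 change 0.15, SE 0.19, limma adjusted p = 0.586), and the sign turned to -0.0059 without DTR replicate 3.

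The other 10 class I genes, all of the M region, lay below the filter. H2-M1, H2-M10.3, H2-M10.4, H2-M10.5 and H2-M11 had 0 reads in every library, which allows up to 3 reads per library, and H2-M10.1 and H2-M10.2 had at most 4. H2-M10.6 had 0 reads in all DTR libraries and 7, 12 and 0 reads in WT libraries. H2-M5 had 2, 0 and 2 reads in DTR, against 13, 4 and 8 reads in WT. H2-M9 stood just under the filter, with a mean log2 RPKM of -2.01, and had 60, 8 and 22 reads in DTR, against 30, 24 and 22 reads in WT. The H2-M10 genes are known in the mouse from sensory neurons of the vomeronasal organ. H2-Ke6 had 2 to 5 reads in DTR libraries and 1 to 7 reads in WT libraries, and 86.4% of its exon bases are shared with Gm20427. In a limma fit of every gene that varied, none of those with reads among these genes passed, while H2-M5 had an unadjusted p of 0.0490 (adjusted p = 0.196); voom was not run on them.

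**Figure D2:**
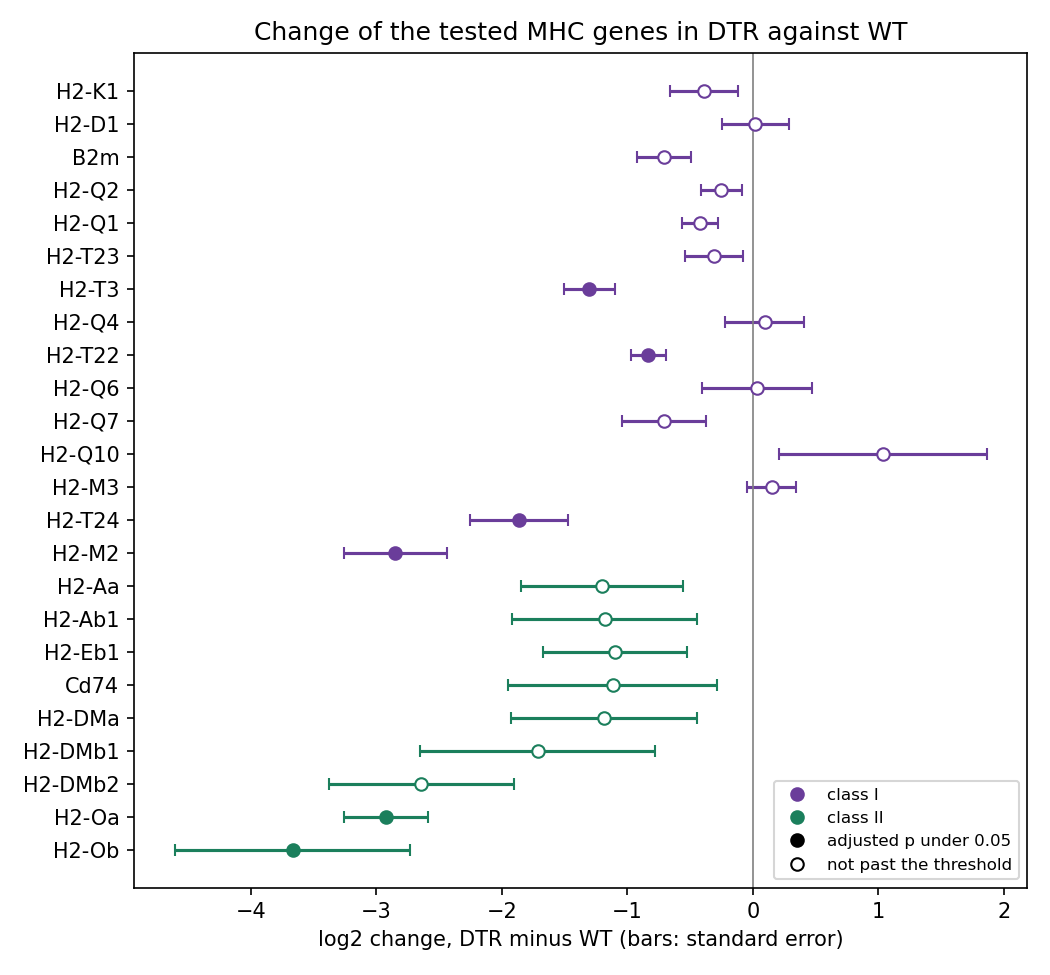
Log2 change, DTR minus WT, of the 24 tested MHC genes, with class I in purple and class II in green; points are the limma estimates, bars are standard errors, and filled points have an adjusted p under 0.05. All 9 class II genes lie left of 0, between -3.67 and -1.10, with wide bars for all but H2-Oa, while class I genes spread from -2.85 to 1.04. Of the class II genes, H2-Oa and H2-Ob passed the level filter through their WT levels.

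Most of the genes that supply and load class I peptides fell. Of 14 such genes, all tested, 9 fell and none rose, against 8.74% of all tested genes that fell and 9.54% that rose. This list and the other lists below were chosen with earlier results of these data known, so their counts are not independent of the data. Their median change was -1.002, and in 11 of the 14 no DTR library reached the lowest WT library, against 22.6% of all tested genes. The immunoproteasome subunits, which interferon-gamma places in the proteasome in exchange for its standard ones, were among those that fell. Psmb8 had 8.55, 10.9 and 14.6 RPKM in DTR replicates 1, 2 and 3, against 27.4, 27.7 and 34.7 RPKM in WT replicates 1, 2 and 3, and its log2 change was -1.43 (SE 0.22, limma adjusted p = 0.0154). Psmb9 had 8.18, 5.76 and 9.95 RPKM in DTR, against 21.1, 21.5 and 29.8 RPKM in WT (log2 change -1.61, limma adjusted p = 0.0149). Psmb10 averaged 60.4 ± 13.6 RPKM in DTR and 152 ± 10.8 RPKM in WT (SD, n = 3 each; log2 change -1.36, limma adjusted p = 0.0124). All 3 subunits thus lay below the WT range in each DTR library.

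Psme2, a subunit of the proteasome activator PA28, averaged 88.4 ± 3.48 RPKM in DTR and 192 ± 22.8 RPKM in WT (SD, n = 3 each), a log2 change of -1.11 (SE 0.13, limma adjusted p = 0.00823). Tapbpl, which edits the peptides bound to class I, averaged 10.1 ± 1.11 RPKM in DTR and 23.98 ± 2.82 RPKM in WT (SD, n = 3 each), a log2 change of -1.24 (SE 0.14, limma adjusted p = 0.00822). Each of these passed in 17 of 19 alternatives; Tapbpl missed the threshold without WT replicate 1 (adjusted p = 0.0502) and Psme2 without WT replicate 2 (adjusted p = 0.0539), and both with replicate 3 of each group left out. The remaining genes that fell were Tap2 (log2 change -1.15), Tapbp (-0.89), Psme1 (-0.50) and Erap1 (-0.52). Tap1, the partner of Tap2 in the peptide transporter, had 10.6, 19.4 and 16.0 RPKM in DTR, against 15.2, 15.8 and 23.6 RPKM in WT. Its groups overlapped (log2 change -0.26, SE 0.28, limma adjusted p = 0.508). Nlrc5, the class I transactivator, had 0.579, 0.622 and 1.38 RPKM in DTR, against 1.48, 1.59 and 2.66 RPKM in WT. Every DTR library lay below the WT libraries, yet the change of -1.22 (SE 0.42) missed the threshold (limma adjusted p = 0.0840). The general chaperones Pdia3, Calr and Canx had log2 changes of -0.10, -0.56 and -0.39, none past the threshold. Without WT replicate 1, 2 or 3, no more than 3 of the genes in this list, the class II partners, the class I-like genes and the interferon-gamma list together were called, against 20 with all libraries.

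**Figure D3:**
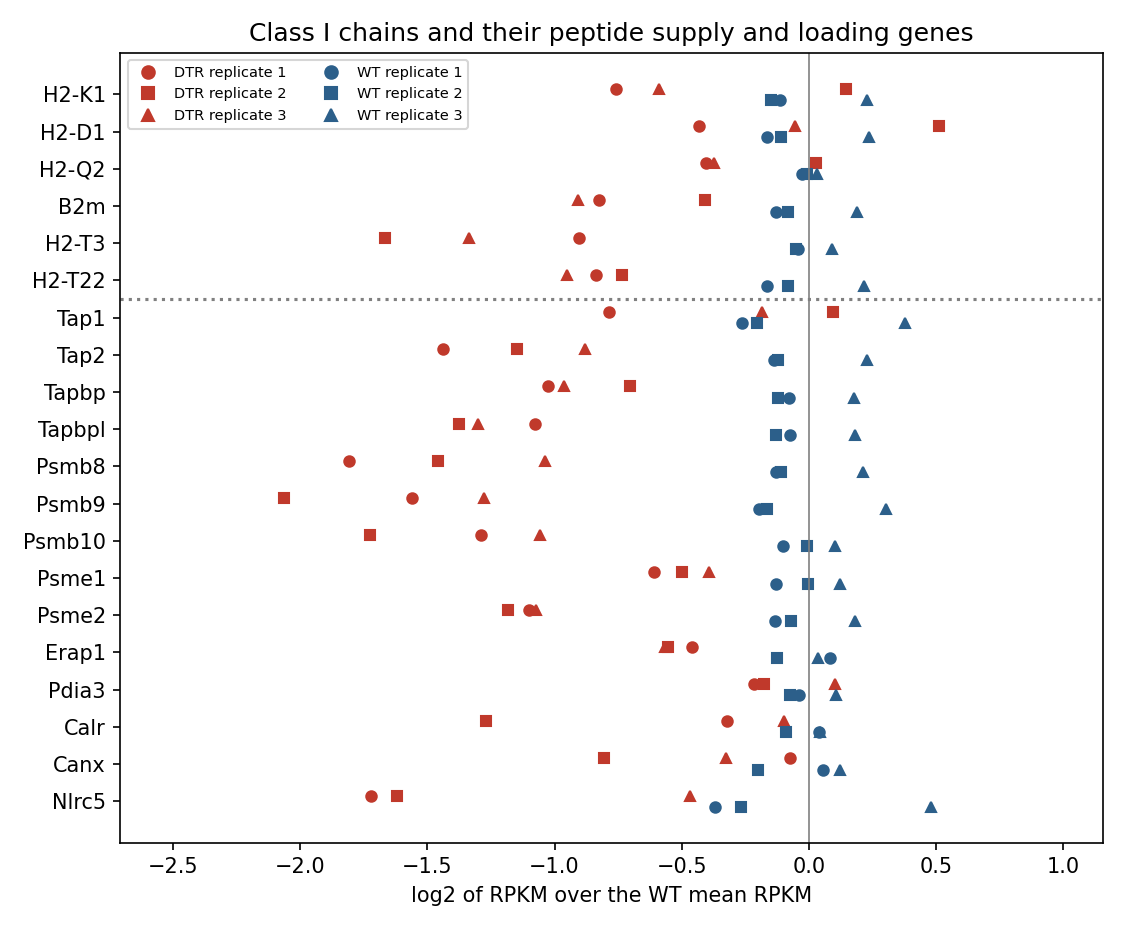
Log2 ratio of each library's RPKM to the WT mean RPKM for 6 class I genes (above the dotted line) and the 14 peptide supply and loading genes (below it); red is DTR, blue is WT, and the marker shape gives the replicate number. H2-K1, H2-D1 and Tap1 of DTR replicate 2 lie right of 0, whereas Psmb8, Psmb9, Psmb10, Psme2 and Tapbpl of all DTR libraries lie left of the WT points.

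Class I-like genes outside the complex, such as Cd1d1, Mr1 and Fcgrt, gave no call in either direction by limma or voom: 6 of 12 were tested, with a median change of -0.21, and 1 was lower at an unadjusted p under 0.05, namely Mr1. Mr1, which presents vitamin metabolites to MAIT cells, had 0.223, 0.220 and 0.183 RPKM in DTR, against 0.326, 0.415 and 0.421 RPKM in WT (log2 change -0.89, limma adjusted p = 0.0846). It passed the filter through its WT level, with a mean log2 RPKM of -2.26 in DTR and -1.38 in WT. The count of 1 lower gene therefore cannot be read against a background. Fcgrt, the neonatal Fc receptor, averaged 71.7 ± 8.85 RPKM in DTR and 68.1 ± 3.12 RPKM in WT (SD, n = 3 each).

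The class II chains differed more between replicates of a group than between the group means, and none of H2-Aa, H2-Ab1, H2-Eb1 and Cd74 passed the test. H2-Aa (ENSMUSG00000036594.15, chromosome 17, 34282744 to 34287823, minus strand), the alpha chain of I-A, had 26.1, 22.2 and 89.4 RPKM in DTR replicates 1, 2 and 3, against 53.1, 69.8 and 171 RPKM in WT replicates 1, 2 and 3. DTR replicate 3 stood above WT replicates 1 and 2, and WT replicate 3 above all others. The log2 change of H2-Aa was -1.20 (SE 0.65, limma adjusted p = 0.211). H2-Ab1, its beta chain, had 25.1, 32.6 and 132 RPKM in DTR, against 64.4, 83.4 and 233 RPKM in WT (log2 change -1.18, SE 0.74, limma adjusted p = 0.271). H2-Eb1, the gene for the beta chain of I-E, had 33.7, 24.6 and 90.8 RPKM in DTR, against 60.8, 73.0 and 166 RPKM in WT (log2 change -1.10, SE 0.57, limma adjusted p = 0.201). The E alpha gene, H2-Ea-ps, is listed as a polymorphic pseudogene and had 0, 0 and 2 reads in DTR, against 0, 6 and 0 reads in WT. The RNA of H2-Eb1 is therefore no measure of an I-E molecule. Cd74 had 66.6, 62.2 and 378 RPKM in DTR, against 142, 195 and 577 RPKM in WT (log2 change -1.12, SE 0.83, limma adjusted p = 0.348). For H2-Aa, H2-Ab1, H2-Eb1 and Cd74 the order of the libraries within each group was nearly the same, with replicate 3 high. Single libraries moved these changes: Cd74 had -1.97 without DTR replicate 3 and -0.52 without WT replicate 3, H2-Aa -1.83 and -0.71, H2-Ab1 -1.91 and -0.62, and H2-Eb1 -1.65 and -0.66. Array weights give libraries that fit less well less weight. They were 0.320, 0.285 and 0.899 for DTR replicates 1, 2 and 3, and 2.69, 2.86 and 1.58 for WT replicates 1, 2 and 3. DTR replicate 3, high for these genes, thus counted most in the weighted DTR mean. With array weights the changes were -0.24 for Cd74, -0.54 for H2-Aa, -0.42 for H2-Ab1 and -0.51 for H2-Eb1. None of these passed the threshold.

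The DM genes held both patterns found among class II genes. H2-DMa had 1.69, 1.27 and 7.31 RPKM in DTR, against 3.50, 4.73 and 11.1 RPKM in WT (log2 change -1.19, SE 0.74, limma adjusted p = 0.269). H2-DMb1 had 2.72, 1.90 and 17.6 RPKM in DTR, against 8.09, 11.2 and 35.8 RPKM in WT (log2 change -1.71, SE 0.94, limma adjusted p = 0.218). In both, replicate 3 was again the highest of its group. Without DTR replicate 3 the changes were -1.96 for H2-DMa and -2.70 for H2-DMb1, and without WT replicate 3 they were -0.70 and -1.08. With array weights they were -0.41 and -0.72, and none of these passed. H2-DMb2, the second beta chain gene, had 0.843, 0.186 and 0.627 RPKM in DTR, against 1.22, 4.89 and 4.05 RPKM in WT, so that replicate 3 stood highest in neither group. All its DTR libraries lay below all WT libraries, and the change of -2.64 (SE 0.74) just missed the threshold (limma adjusted p = 0.0522), while it passed in 7 of 19 alternatives. The ratio of H2-DMb2 to H2-DMb1 RPKM was 0.310, 0.0977 and 0.0356 in DTR, against 0.151, 0.438 and 0.113 in WT. H2-DMb1 and H2-DMb2 share 22.7% and 21.2% of their 50-base stretches with each other, so part of their reads cannot be assigned by sequence.

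Both chains of DO, the inhibitor of DM that is known chiefly from B cells, fell. H2-Oa (chromosome 17, 34092340 to 34095234, plus strand) had 14, 14 and 21 reads in DTR, against 109, 160 and 148 reads in WT. Its mean was 0.185 ± 0.0476 RPKM in DTR and 1.43 ± 0.407 RPKM in WT (SD, n = 3 each), and it fell by 2.92 on the log2 scale (SE 0.33, limma adjusted p = 0.00822). H2-Oa had the smallest p of all MHC genes tested and the smallest standard error of the class II genes. The limma adjusted p of H2-Oa was 0.0539 without WT replicate 2 and 0.0513 without WT replicate 3, both above the threshold, and 0.0413 without WT replicate 1. Of its exon bases, 22.8% lie over BC051537 on the opposite strand, and reads of both cannot be told apart without the strand setting. H2-Ob (34238903 to 34254414, plus strand) had 148, 18 and 45 reads in DTR, against 254, 1243 and 1104 reads in WT. In RPKM H2-Ob had 0.427, 0.0544 and 0.135 in DTR, against 0.638, 3.78 and 2.71 in WT, so the groups did not overlap but DTR replicate 1 and WT replicate 1 were close. H2-Ob fell by 3.67 on the log2 scale (SE 0.94, limma adjusted p = 0.0431), and the adjusted p was 0.0822 without DTR replicate 2, 0.109 without DTR replicate 3, and 0.0716, 0.138 and 0.139 without WT replicate 1, 2 and 3. The call of H2-Ob was also lost with a pseudocount of 1 (-1.36, adjusted p = 0.0508), without a mean-variance trend (adjusted p = 0.0531) and with array weights (adjusted p = 0.0587). H2-Oa had a change of -1.02 with a pseudocount of 1 and was still called. H2-Oa and H2-Ob had mean log2 RPKM of -2.44 and -2.77 in DTR and passed the filter through their WT levels, so that passing it already required a difference. H2-Eb2 lay under the filter with a mean log2 RPKM of -2.14, and had 68, 3 and 20 reads in DTR, against 34, 350 and 329 reads in WT. It resembled H2-Ob but for DTR replicate 1, which stood above WT replicate 1.

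The class II genes thus fell into groups by their order over libraries, a description made after the values were seen. In H2-Aa, H2-Ab1, H2-Eb1, Cd74, H2-DMa and H2-DMb1, DTR replicate 3 was 2.70 to 6.47 times DTR replicate 1, and WT replicate 3 was 2.74 to 4.42 times WT replicate 1. In these genes replicate 3 of DTR lay below replicate 3 of WT, by ratios of 0.492 to 0.657. In H2-DMb2, H2-Ob and H2-Eb2, WT replicate 2 was the highest of all libraries, at 4.00, 5.92 and 12.4 times WT replicate 1, and DTR replicate 1 was the highest of its group. Without replicate 3 of each group, chosen as an alternative after these levels were seen, H2-DMb2 had a log2 change of -2.62 (limma adjusted p = 0.265). In that fit, at 2 libraries per group, no class II gene was called by limma, while 7 were lower at an unadjusted p under 0.05. The number of all genes at that unadjusted p is not given for this fit, so the 7 cannot be read against a background.

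**Figure D4:**
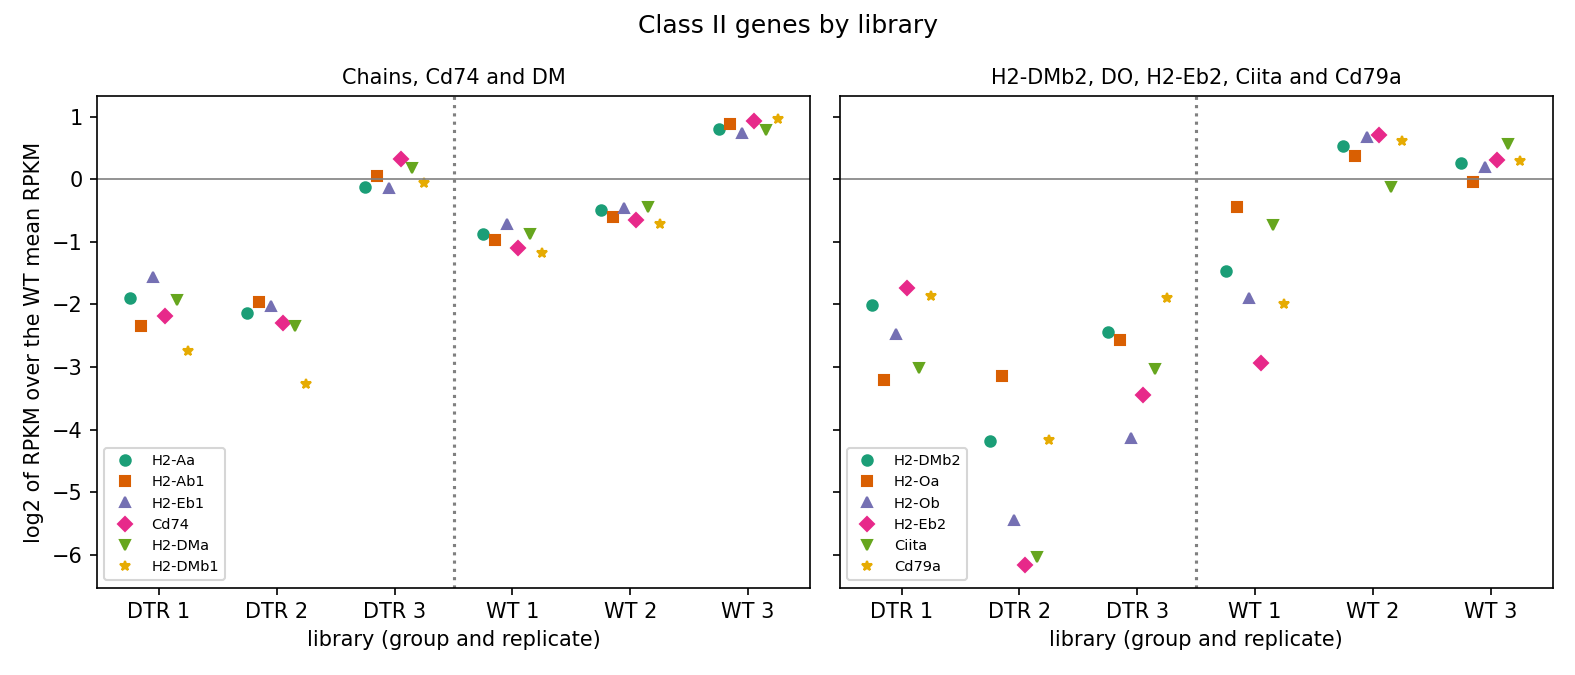
Log2 ratio of each library's RPKM to the WT mean RPKM, by library, with DTR replicates left of the dotted line and WT replicates right of it. On the left the 4 chain genes with H2-DMa and H2-DMb1 are highest in replicate 3 of each group; on the right H2-DMb2, H2-Ob and H2-Eb2 are shown with H2-Oa, the transactivator gene Ciita and the B cell marker Cd79a, and WT replicates 2 and 3 stand highest.

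Markers of cells that carry class II are given beside these genes. For B cells, 3 of 6 markers were tested and none passed by limma or voom, while 2 were lower at an unadjusted p under 0.05. The summed level of all 6, tested or not, was 5.22, 1.62 and 4.08 RPKM in DTR, against 4.43, 33.4 and 25.4 RPKM in WT. Cd79a, a part of the B cell receptor, had 2.26, 0.457 and 2.22 RPKM in DTR, against 2.07, 12.6 and 10.05 RPKM in WT. Pax5, a transcription factor of the B cell lineage, had 0 reads in DTR replicate 3. As for H2-DMb2, H2-Ob and H2-Eb2, the B cell markers stood high in WT replicates 2 and 3 and low in WT replicate 1; their part in the changes of these genes was not tested. For macrophages and dendritic cells, 3 of 7 tested markers fell (Adgre1 -1.39, Itgax -2.26 and Cd209a -6.12 on the log2 scale) and none rose, against 8.74% and 9.54% of all tested genes. Cd209a had 0 RPKM in DTR replicate 2 and passed the filter through its WT level. The count of 3 that fell, which includes Cd209a, therefore cannot be read against the 8.74%. With a pseudocount of 1 added to the RPKM the changes were -1.79 for Cd209a, -1.46 for Itgax and -0.87 for Adgre1, all still past the threshold. All 12 markers of macrophages and dendritic cells, tested or not, summed to 14.6, 9.13 and 14.7 RPKM in DTR, against 27.9, 28.4 and 22.5 RPKM in WT. WT replicate 3, the highest for the class II chains, was thus the lowest WT library for this sum. The part of these markers in the class II values was not tested.

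Of 7 tested markers of T and natural killer cells, 5 fell (Cd3d, Cd3e, Cd3g, Trac and Gzma) and none rose, against 8.74% of all tested genes that fell and 9.54% that rose. All 8 markers of this list, tested or not, summed to 88.8, 63.5 and 122 RPKM in DTR, against 199, 225 and 321 RPKM in WT. Ncr1, which was not tested, had 0 reads in all DTR libraries. Gzma, a granule protease, made up most of that sum, with 74.4, 57.7 and 107 RPKM in DTR, against 167, 189 and 274 RPKM in WT. Gzma, Cd3d and Cd3e were highest in replicate 3 of each group. Cd3g, Cd8a and Trac were highest in replicate 1 of the DTR group and in replicate 3 of the WT group. Cd4 was highest in DTR replicate 3 and WT replicate 2. The part of these cells in the class I and class II values was not tested. Of 7 epithelial markers Krt18 rose (log2 change 1.27) and Vil1 fell (-0.85), against 9.54% and 8.74% of all tested genes, and their summed level was 3997, 5958 and 5305 RPKM in DTR, against 4363, 4321 and 4750.4 RPKM in WT. None of the 5 endothelial and stromal markers, of the 3 smooth muscle markers or of the 3 pancreas markers passed the test, an unadjusted p under 0.05 or voom. The summed level of smooth muscle markers was 107, 181 and 110.3 RPKM in DTR, against 116, 107 and 84.7 RPKM in WT. The pancreas markers, which do not belong to intestine, summed to 3804, 988 and 1471 RPKM in DTR, against 2185, 6433 and 1814 RPKM in WT, and those of endothelium and stroma to 17.8, 26.0 and 16.8 RPKM in DTR, against 17.4, 15.5 and 12.4 RPKM in WT.

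Among 15 partners and regulators of class II, 4 fell and 1 rose, with a median change of -0.47. Of all tested genes 8.74% fell and 9.54% rose, so that the 1 gene that rose is no more than that background. Ciita, the master transactivator of class II genes, had 0.306, 0.0375 and 0.300 RPKM in DTR replicates 1, 2 and 3, against 1.48, 2.26 and 3.65 RPKM in WT replicates 1, 2 and 3. The groups did not overlap, and Ciita fell by 3.93 on the log2 scale (SE 0.87, limma adjusted p = 0.0317). Ciita passed the filter through its WT level, so the count of 4 that fell, which includes it, cannot be read against the 8.74%. With a pseudocount of 1 its change was -1.47, still past the threshold. Its adjusted p was 0.0590 without DTR replicate 3, and 0.0908, 0.105 and 0.116 without WT replicate 1, 2 and 3. Rfx5 (-0.92, and -0.50 with a pseudocount of 1), Rfxank (-1.17) and Nfya (-1.09), parts of the complexes that bind the X and Y boxes shown above, fell as well. Rfxap, Nfyb, Nfyc and Creb1 did not pass the test, with log2 changes of 0.39, 0.17, -0.10 and -0.47. Every DTR library lay above every WT library for Rfxap and Nfyb, and below every WT library for Creb1. For Nfyc the groups overlapped. Lgmn, a lysosomal protease that cuts the invariant chain, was the gene that rose. It had 84.7, 155 and 80.6 RPKM in DTR, against 30.5, 30.4 and 32.6 RPKM in WT (log2 change 1.71, SE 0.26, limma adjusted p = 0.0149). Ctss, the main protease of invariant chain removal, and Ifi30, a lysosomal thiol reductase, had log2 changes of -0.15 and 0.13 and did not pass. Ctsl had a log2 change of 0.59 (limma adjusted p = 0.0867), with every DTR library above every WT library, and did not pass either.

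Of 11 genes of interferon-gamma signalling, 10 were tested, 5 fell and 1 rose, with a median change of -0.79, against 8.74% of all tested genes that fell and 9.54% that rose. Ifng itself had 0, 4 and 2 reads in DTR, against 12, 10 and 8 reads in WT, too few for the test. Irf1, a transcription factor that acts on class I and Ciita promoters, had 15.8, 24.1 and 12.2 RPKM in DTR, against 52.5, 46.8 and 55.8 RPKM in WT, and fell by 1.63 on the log2 scale (SE 0.25, limma adjusted p = 0.0154). Irf8 fell by 0.98, and the chemokine genes Cxcl9 and Cxcl10, which draw T cells, had log2 changes of -4.63 and -2.57. Cxcl9 had 0.123, 0.0970 and 0.310 RPKM in DTR, against 3.57, 3.60 and 4.52 RPKM in WT. It passed the filter through its WT level, with a mean log2 RPKM of -2.68 in DTR and 1.95 in WT. The count of 5 that fell, which includes Cxcl9, therefore cannot be read against the 8.74%. With a pseudocount of 1 the changes were -2.06 for Cxcl9 and -1.52 for Cxcl10, both still called. Ifngr1, a chain of the interferon-gamma receptor, rose, with 72.8, 100.2 and 130.01 RPKM in DTR, against 46.4, 45.3 and 54.1 RPKM in WT (log2 change 1.02, SE 0.22, limma adjusted p = 0.0309). Without WT replicate 1, 2 or 3 the adjusted p of Irf1 was 0.0711, 0.0647 and 0.0733.

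The classes ordered the libraries differently. The median log2 difference from the WT mean of the 15 tested class I genes was -0.75, 0.03 and -0.52 in DTR replicates 1, 2 and 3, against -0.14, -0.06 and 0.23 in WT replicates 1, 2 and 3. For the 9 tested class II genes it was -1.92, -2.17 and 0.06 in DTR, against -0.74, -0.30 and 0.97 in WT. By these medians, DTR replicate 2 was the highest DTR library for class I and the lowest for class II. The class II median of DTR replicate 3 stood above those of WT replicates 1 and 2. In H2-DMb2, H2-Oa and H2-Ob, however, DTR replicate 3 lay below every WT library.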

How the data were processed

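Whole small intestine RNA was measured in 3 DTR and 3 WT libraries, grouped by the titles in the labels; the sample titled WT2 carries the description of WT1, so which of those WT libraries is which rests on the titles. The authors deposited log2 RPKM for 55487 genes, with a total and a normalization factor per library, a ratio that rescales the total. Per the submitters' processing notes, FastQC, MultiQC, STAR, featureCounts, Subread and edgeR were used on the mm10 build. The sources used here do not give their versions, the strand setting or the annotation. Reads of overlapping genes on opposite strands cannot be separated. Per the labels' protocols, RNA came from Trizol lysates through an RNeasy kit.

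With a prior count of 0.25, the deposited log2 values converted to whole reads for 100% of values within 0.001 reads, and their sums equalled the deposited totals. These reads served for read numbers, and for limma's voom as an alternative, which called 3367 genes. Libraries of a group differed by a chi-square of 77.2 to 446.5 per gene, so none repeats another. The test covered genes whose mean log2 RPKM exceeded -2, on the deposited log2 values with limma 3.58.1 in R 4.3.3 (variance trend, two-sided, Benjamini-Hochberg over 15563 genes, threshold 0.05), which was also tested on simulated data. There it recovered 29% of 2-fold and 55% of 4-fold changes, with 8 false calls. A gene that did not pass may therefore still differ. The simulated data held far fewer changed genes than were called here, and gave each gene the same spread in both groups. The recovery in the real libraries may thus be another. Fold changes of genes with few reads depend on the prior count. Depth limits only the genes with few reads, and a count of 0 allows up to 3 reads, for counting error only.

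All tested MHC genes are named; of each other list, up to 4 genes past the threshold per direction with the smallest p and Ciita, Nlrc5, Irf1, Ifng, Tap1 and Psmb8, and further list members that were chosen after their values were seen; some genes of the lists are not reported here. The members and lists were chosen with earlier results of these data known. The 19 alternatives changed the pseudocount, filter, scaling, variance model, tool, replicate block and libraries; 1 of them, without replicate 3 of each group, was chosen after seeing the data. Positions are 1-based, from GENCODE M21, which held 55394 of the gene IDs; shared stretches of 50 bases were counted over its transcripts. Tables of read depth thresholds were not used.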

Additional observations from a re-analysis of the deposited data

How the results depend on the processing

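Of 963 values of 51 named genes under 19 alternatives, 774 had the same direction and side of the threshold, 157 lost and 19 gained the call, and 13 changed sign. Calls rested most on which libraries were left out. Without DTR replicate 1, 2 and 3 the fit called 5605, 2405 and 1010 genes. Without WT replicate 1, 2 and 3 it called 152, 157 and 207 genes. Leaving out 1 library at a time gave 152 to 5605 genes called in all (2845 with all), 0 to 5 class I genes (4 with all), 0 to 3 class II genes (2 with all) and 2 to 23 genes of the processing and signalling lists (20 with all); the lowest class I and list counts came without a WT library, and the 0 calls of class II without WT replicate 2 or 3, where limma's unadjusted p was under 0.05 for 4 or 5 class I genes and 3 class II genes. Without replicate 3 of both groups, chosen after seeing the data, 37 genes, 0 class I genes, 0 class II genes and 1 list gene were called, with 2 libraries per group. Array weights gave 4862 genes in all and 1 class II gene, a filter at 0 and a fit with no trend also 1 class II gene; the filter removed H2-Oa and H2-Ob below it, and for the others the cause was not tested. The other counts under the pseudocounts of 0.1 and 1, the filters, the scalings, the robust prior and voom lay within 1.5 times the value given in the report.

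The same replicate numbers do not mark shared animals in the labels. Deviations of same-numbered DTR and WT libraries correlated at -0.011, -0.0024 and 0.165 for numbers 1, 2 and 3, so the numbers were not taken to pair the samples. With the replicate block, 1161 genes, 2 class I genes, 5 class II genes and 15 list genes were called; H2-Aa, H2-Ab1, H2-Eb1 and H2-DMb1 were then past the threshold and H2-Ob was not.

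Signs that changed were those of H2-D1 (-0.23 without DTR replicate 2, -0.055 without WT replicate 1, -0.029 without WT replicate 2), H2-M3 (-0.0059 without DTR replicate 3, -0.036 also without WT replicate 3), H2-Q4 (-0.11, -0.016 and -0.039 without DTR replicate 2, DTR replicate 3 and WT replicate 1) and H2-Q6 (-0.0058 with quantile normalization, -0.085, -0.34 and -0.13 without DTR replicate 2, DTR replicate 3 and WT replicate 1, and -0.22 without replicate 3 of both groups). Their highest values with 1 library left out, each without DTR replicate 1, were 0.24 for H2-D1, 0.26 for H2-M3, 0.41 for H2-Q4 and 0.53 for H2-Q6. Depth limits H2-M2, H2-Oa and the M region genes below the filter.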

Other observations

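Among 11 further H2 symbols that the deposited table does not class as protein-coding, and which are therefore not counted above, 6 were tested and 3 of the 6 fell, against 8.74% of all tested genes. H2-Bl, listed as a polymorphic pseudogene, had 25.4, 35.1 and 20.01 RPKM in DTR replicates 1, 2 and 3, against 63.5, 66.7 and 70.6 RPKM in WT replicates 1, 2 and 3, a log2 change of -1.36 (SE 0.21, limma adjusted p = 0.0158). H2-T-ps had 3.60, 4.02 and 1.90 RPKM in DTR, against 12.3, 11.6 and 12.4 RPKM in WT (log2 change -1.9995, limma adjusted p = 0.0136). H2-Q3 had 2.81, 1.12 and 2.41 RPKM in DTR, against 8.65, 8.33 and 8.09 RPKM in WT (log2 change -2.08, limma adjusted p = 0.0172). In all 3 the groups did not overlap, and each lost the call when any 1 WT library was left out, with a highest adjusted p of 0.0760 for H2-Bl, 0.0673 for H2-T-ps and 0.0785 for H2-Q3. H2-T10, which shares sequence with H2-T22, had 0.472, 0.908 and 0.970 RPKM in DTR, against 1.36, 1.65 and 1.57 RPKM in WT, and missed the threshold (log2 change -1.03, limma adjusted p = 0.0682). H2-K2 (-0.88) and H2-Q5 (-0.56) had overlapping groups and did not pass.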
